A study of Mus musculus with 12 samples.

Results

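TRAV16 and TRAV3 are 2 families of variable (V) genes of the T cell receptor alpha chain, and they were compared here in T cells from mouse mammary tumours. The members were chosen by V gene name: productive alpha chain (TRA) contigs in called cells with TRAV16, TRAV16D or TRAV16N, or with a gene of the TRAV3 family, leaving out names shared with the delta chain. Each combination of V gene and CDR3 nucleotide sequence was counted once per library and is called a rearrangement. This gave 693 rearrangements out of 9383 productive TRA rearrangements, 390 of the TRAV16 family and 303 of the TRAV3 family, carried by 799 cells. Because the V gene chose the members, the share of each family is a description, and tests are given only for the J gene, the beta chain and other readouts that the choice did not use. The V gene also encodes the first bases of the CDR3, so the length and charge of the alpha CDR3 are in part set by the choice and are described without a test.

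The cells were CD45+ leukocytes of mammary tumours in BALB/c mice, and the labels of every sample name a 3-week course of cyclophosphamide, an alkylating drug, with pexidartinib, an inhibitor of the CSF1 receptor. Treatment status sorts the 12 samples into untreated and treated expression samples and treated receptor samples. In the receptor table the libraries carry tags that the labels leave undefined. CTX, CTX2 and Combined matched treated receptor samples, CSF1R matched the treated expression group without singling out 1 of its samples, and PBS1 matched an untreated expression sample. PBS2 was in conflict, treated by its receptor number and untreated by its expression number. No label ties a library to a mouse, so that every p-value below measures the spread between libraries, which may be technical.

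An alpha chain is made by joining 1 of many TRAV genes to 1 of many TRAJ genes, with bases trimmed and added at the join. That junction encodes CDR3, the loop at the centre of the contact with peptide and major histocompatibility complex. TRAJ genes are numbered from the downstream end, so a high number lies nearest to the V genes. Joining can repeat on the same chromosome, and each later round uses a V gene farther upstream and a J gene farther downstream. In the mouse, TRAV families were copied several times along the locus, and the copies are told apart by the letters D and N or by a second number.

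The start of the CDR3 differs between the families, and it is printed here because it enters the length and charge results below. The lines give the consensus of the bases encoded at the V end of the CDR3, 5′ to 3′, taken from the rearrangements themselves up to the last position at which at least 50% agreed, 16 bases for TRAV16 and 13 for TRAV3.
TRAV16 V end: tgtgctatgagagagg
TRAV3 V end: tgcgcagtcagtg
In amino acids, 93.6% of TRAV16 rearrangements opened with CAMR and 67.9% with CAMRE. Of TRAV3 rearrangements 61.4% opened with CAVS and 20.8% with CAVSA.

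The CDR3 sequences found in 3 or more libraries are printed next, 3 of each family, because they are the members shared most widely. Capitals mark the bases that match neither the V end above nor the consensus of the J gene's end. Where a sequence had more than 1 nucleotide version, 1 version is shown, except for TRAJ15, where both are.
TRAV16N with TRAJ48: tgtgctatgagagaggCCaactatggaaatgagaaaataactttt
TRAV16N with TRAJ49: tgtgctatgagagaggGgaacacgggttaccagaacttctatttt
TRAV16N with TRAJ52: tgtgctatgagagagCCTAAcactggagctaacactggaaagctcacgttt
TRAV3-3 with TRAJ15, first version: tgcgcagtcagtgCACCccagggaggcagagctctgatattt
TRAV3-3 with TRAJ15, second version: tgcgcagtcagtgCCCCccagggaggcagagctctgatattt
TRAV3-3 or TRAV3-4 with TRAJ53: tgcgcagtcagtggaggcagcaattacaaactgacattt
TRAV3-3 or TRAV3-4 with TRAJ52: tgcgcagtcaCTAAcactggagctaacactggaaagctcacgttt
The TRAJ53 sequence had 0 bases between the V and J matches. The TRAJ15 versions differ by A15C, counted from the first base of the CDR3, and both encode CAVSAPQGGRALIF.

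The libraries differed widely in size. Called cells ran from 245 in PBS1 to 7629 in Combined, UMIs (unique molecular identifiers, 1 per captured transcript) from 6807 to 121305, and productive TRA rearrangements from 145 to 7040. Combined alone held 426 of the 693 members and PBS1 held 25. Of 11468 barcodes called as cells, 50 occurred in 2 or more libraries, and 11 of the 799 member cells sat on such a barcode. None of the 678 member receptors defined by alpha and beta nucleotide sequence was found in 2 libraries. Intervals on shares below are exact Clopper-Pearson 95% intervals and cover counting error only. Beside a count of 0, the share that 3 counts would make is printed as its limit.

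All 390 TRAV16 rearrangements were assigned to the copy TRAV16N (chromosome 14, 53351090 to 53351621 in GRCm38.p6, a V segment). TRAV16 itself (53743174 to 53743705) and TRAV16D had 0, and TRAV16D-DV11, left out by its name, had 6. In the TRAV3 family 165 rearrangements were TRAV3-3 (53666005 to 53666506), 97 TRAV3-4 (53777071 to 53777576), 33 TRAV3-1 (52580762 to 52581213) and 8 TRAV3N-3 (53283669 to 53284175). That assembly comes from another strain than BALB/c and near-identical copies can be named for each other, so single copies are uncertain. Within 1 library, 6 TRAV3 CDR3 sequences stood under more than 1 V copy, and 0 TRAV16 sequences did. TRAV16N had the 2nd largest mean share of the 77 V genes found and TRAV3-3 the 8th.

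TRAV16 made up a similar share of TRA rearrangements in 5 libraries and a larger one in PBS1. The share was 8.28% in PBS1 (interval 4.35 to 14.01), 4.70% in PBS2 (2.85 to 7.25), 5.02% in CSF1R (3.65 to 6.70), 5.73% in CTX (3.70 to 8.40), 5.21% in CTX2 (3.46 to 7.49) and 3.76% in Combined (3.33 to 4.24). The mean was 5.45% ± 1.53 (SD, n = 6). Only the intervals of PBS1 and Combined fail to meet: in every other pair of libraries they overlap.

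The TRAV3 share varied more. It was 8.97% in PBS1 (4.86 to 14.8), 5.45% in PBS2 (3.44 to 8.13), 7.0% in CSF1R (5.38 to 8.92), 5.49% in CTX (3.51 to 8.12), 4.63% in CTX2 (2.99 to 6.82) and 2.29% in Combined (1.95 to 2.66), a mean of 5.64% ± 2.25 (SD, n = 6). Combined was the lowest, and its interval lay below those of the other 5 libraries. Among the copies, TRAV3-3 was likewise highest in PBS1 and lowest in Combined, with 4.83% in PBS1, 4.21% in PBS2, 4.78% in CSF1R, 2.86% in CTX, 2.32% in CTX2 and 1.08% in Combined. TRAV3-4 was at 0.690%, 0.990%, 1.05%, 0.955%, 1.54% and 1.01% in the same libraries, where all intervals overlapped. TRAV3-1 was listed once in PBS2 and at most 14 times in a library, and TRAV3N-3 had 0 rearrangements in PBS2 and in Combined, with limits of 0.743% and 0.0426%.

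The 4 treated libraries had a mean TRAV16 share of 4.93% ± 0.833 and a mean TRAV3 share of 4.85% ± 1.97 (SD, n = 4). PBS1, the 1 untreated library, was above all of them for both families, and PBS2 lay within their range for both. No test was run, since 4 libraries against 1 cannot give an exact permutation p below 0.2, and PBS1 is also the smallest library.

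**Figure D1:**
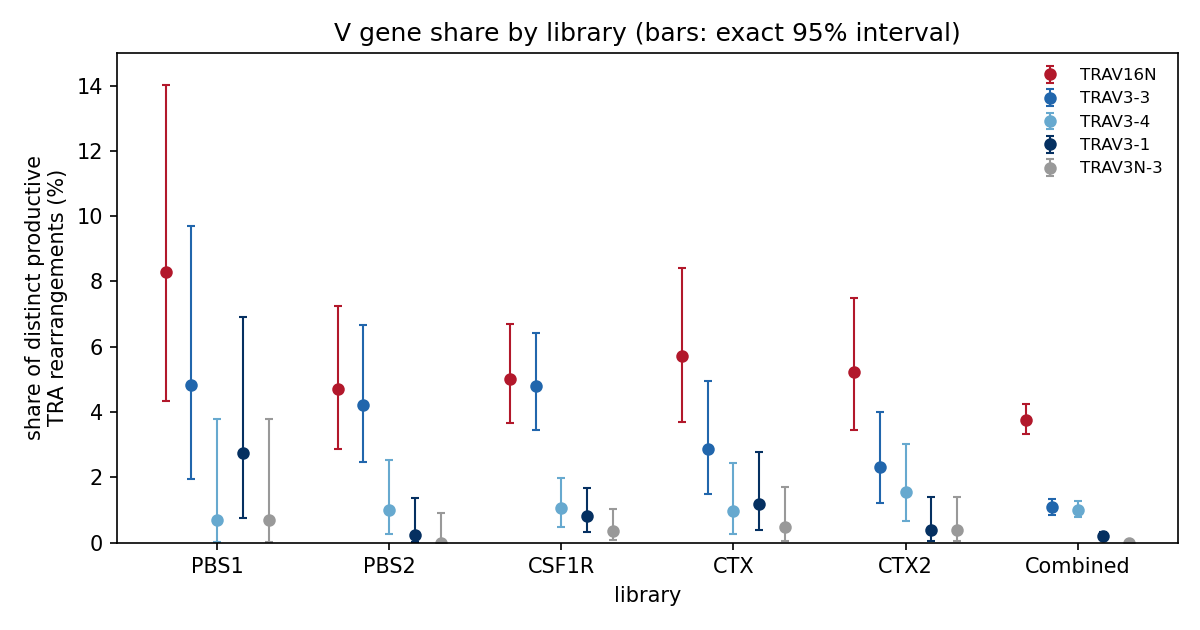
Share of productive TRA rearrangements (vertical axis, percent) that used each member V gene in each of the 6 libraries (horizontal axis); points are shares and bars exact 95% intervals. TRAV16N is the highest point in every library, TRAV3-3 goes from 4.83% in PBS1 to 1.08% in Combined, and TRAV3-4 stays between 0.690% and 1.54%.

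TRAV16 joined J genes of a narrow range of mean position, while the TRAV3 mean moved between libraries. The mean TRAJ number of TRAV16 was 37.8 in PBS1, 40.4 in PBS2, 38.7 in CSF1R, 38.2 in CTX, 41.9 in CTX2 and 38.5 in Combined. For TRAV3 it was 25.5, 35.4, 36.1, 26.7, 40.3 and 39.5. The TRAV16 values span about 4 J numbers, and TRAV3 was the lower family in every library except Combined. Over libraries the TRAV16 mean was 39.2 ± 1.57 and the TRAV3 mean 33.9 ± 6.37, a difference of 5.32 ± 5.45 J numbers (SD, n = 6 libraries; higher in 5 of 6; two-sided exact sign-flip permutation p = 0.0625, 0.0859 after Benjamini-Hochberg adjustment over 11 measures). The 4 libraries with a plain library number (PBS1, PBS2, CSF1R and CTX, called the libraries named by number) averaged 7.85, and those numbered with a leading JR (CTX2 and Combined) 0.262. With the rearrangements of all libraries pooled, where Combined weighs most, the difference was 1.79. The labels do not say whether this naming marks a batch. The smallest p that 6 libraries allow is 0.031, and with the 11 measures, which count alpha CDR3 length and charge, no adjusted p passed 0.05. Counting alpha CDR3 length and charge lowers most adjusted values of the other measures.

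Shares at the ends of the J locus showed the same split. Upstream genes, TRAJ47 or a higher number, took 33.3% of TRAV16 rearrangements in PBS1, 47.4% in PBS2, 39.5% in CSF1R, 33.3% in CTX, 48.1% in CTX2 and 40% in Combined, against 7.69%, 31.8%, 31.7%, 17.4%, 50% and 37.9% of TRAV3. The difference was 10.9 percentage points ± 10.1 (higher in 5 of 6, exact permutation p = 0.0625, adjusted 0.0859), 16.2 in the libraries named by number, 0.130 in the JR libraries and 5.93 in the pooled rearrangements. Without PBS1 and PBS2 it was 6.02, and counting each cell once 6.15 (exact permutation p = 0.562). Downstream genes, TRAJ20 or a lower number, took 16.7%, 0%, 9.30%, 4.17%, 3.70% and 14.3% of TRAV16 and 38.5%, 22.7%, 16.7%, 47.8%, 12.5% and 12.4% of TRAV3, with the libraries in the same order. TRAV3 was higher in all but Combined, and the difference was -17.1 points ± 16.0 (lower in 5 of 6, exact permutation p = 0.0625, adjusted 0.0859), -23.9 in the libraries named by number, -3.44 in the JR libraries and -6.03 in the pooled rearrangements. The 0% in PBS2 rests on 19 rearrangements.

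Within the TRAV3 family the copies used different parts of the J locus. TRAV3-4, the copy nearest to the J genes, had a pooled mean TRAJ number of 48.9 over its 97 rearrangements, and 71.1% of them used upstream J genes. TRAV3-3 had a mean of 32.7 with 18.8% upstream, and TRAV3-1, the farthest copy, a mean of 23.8 with 3.03% upstream and 42.4% downstream. TRAV16N stood between them at 38.8 with 40.3% upstream. The 8 TRAV3N-3 rearrangements averaged 37.5, too few to place.

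The order of the copies was not identical in each library. TRAV3-4 exceeded TRAV3-3 in 5 of 6 libraries, by 16.4 ± 9.14 J numbers (SD, n = 6), and the exception, PBS1, held a single TRAV3-4 rearrangement. TRAV3-3 exceeded TRAV3-1 in 5 of 6, by 6.57 ± 7.66, with CTX2 as the exception, where TRAV3-1 had 2 rearrangements. TRAV16N exceeded TRAV3-3 in 6 of 6, by 8.95 ± 3.97. TRAV3-4 exceeded TRAV16N in 5 of 6, by 7.40 ± 9.54, so these neighbours in the order differ by less than the spread. These pairs were chosen after the values were seen and carry no test. TRAV3-4 gave 71 of 161 TRAV3 rearrangements in Combined, 8 of 24 in CTX2 and 9 of 60 in CSF1R. It gave 4 of 22 in PBS2, 4 of 23 in CTX and 1 of 13 in PBS1. The TRAV3 mean was lowest in PBS1 and CTX, at 25.5 and 26.7. In CSF1R and PBS2, where TRAV3-4 had a share similar to that in CTX, the TRAV3 mean was 36.1 and 35.4. Whether the mix of copies sets the family mean was not tested.

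**Figure D2:**
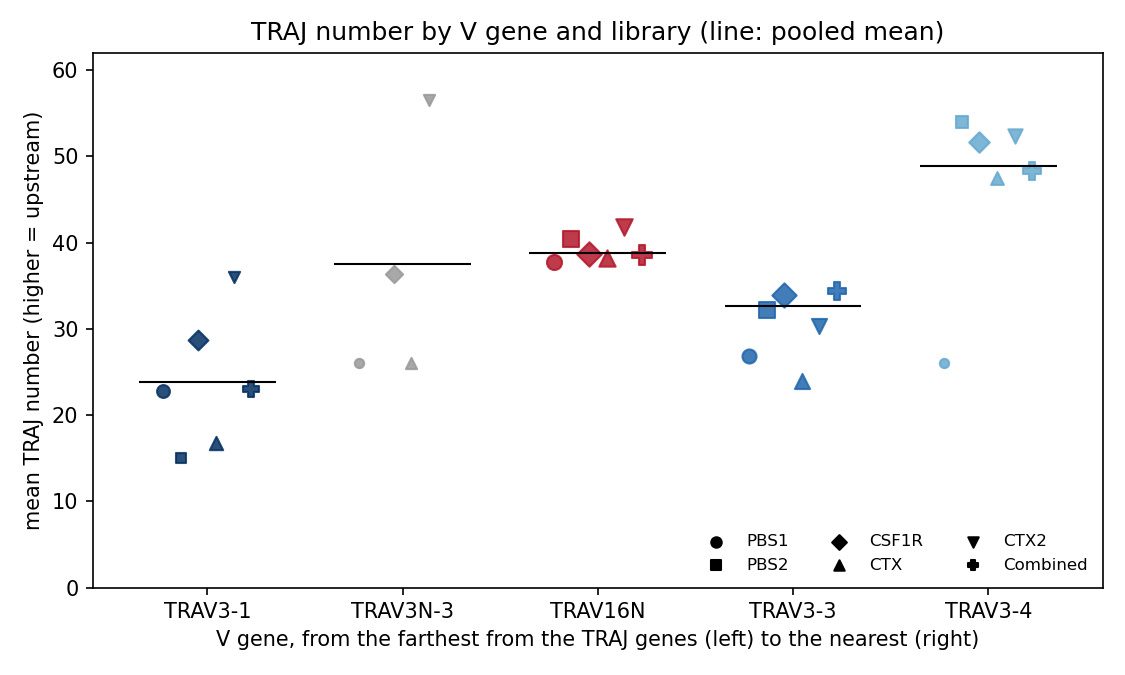
Mean TRAJ number (vertical axis; higher numbers lie upstream) of each member V gene in each library (symbols, sized by the number of rearrangements), with a line at the pooled mean; genes run from the farthest from the J genes on the left to the nearest on the right. TRAV16N lies between 37.8 and 41.9 in all libraries, and TRAV3-4 lies above TRAV3-3 except in PBS1, where it had 1 rearrangement.

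Placed on the locus, the V genes end 377 kb (TRAV3-4), 488 kb (TRAV3-3), 803 kb (TRAV16N), 871 kb (TRAV3N-3) and 1574 kb (TRAV3-1) before the first TRAJ gene, TRAJ61. Among the 55 V genes with at least 20 rearrangements, TRAV3-4 had the highest mean TRAJ number, TRAV16N the 11th, TRAV3-3 the 35th and TRAV3-1 the lowest. TRAV16N thus ranked above TRAV3-3 although it lies farther from the J genes. Across these 55 genes, distance and mean TRAJ number had a Spearman rho of -0.519, given as a description, since the genes share libraries and neighbouring copies can be confused. The name TRAV16, which was not found, belongs to a gene 411 kb from TRAJ61, so the position of TRAV16N rests on the copy named in the table.

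**Figure D3:**
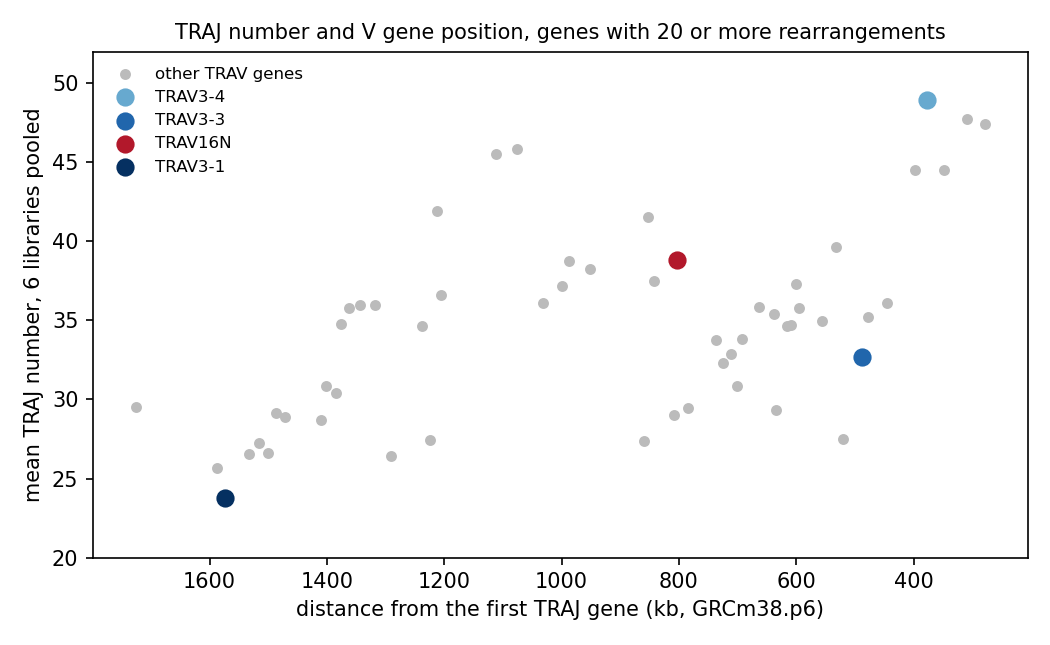
Mean TRAJ number of each V gene over the pooled libraries (vertical axis) against its distance in kb from the first TRAJ gene (horizontal axis, decreasing to the right), 1 point per V gene with 20 or more rearrangements. TRAV3-4 is the highest of the 55 points and TRAV3-1 the lowest. TRAV16N, at 803 kb with a mean of 38.8, lies above TRAV3-3, at 488 kb with 32.7.

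Single J genes were thinly covered. TRAV16 used TRAJ48 most, at a mean of 6.85% ± 5.25, then TRAJ52 (6.35% ± 3.70), TRAJ58 (5.03% ± 2.91), TRAJ49 (4.77% ± 3.83) and TRAJ40 (4.67% ± 2.13; SD, n = 6 for each). For TRAV3 the order was TRAJ15 (8.26% ± 4.55), TRAJ45 (5.95% ± 3.27), TRAJ57 (5.36% ± 6.19), TRAJ48 (4.95% ± 2.60) and TRAJ7 (4.60% ± 5.12). TRAJ15 and TRAJ7, both in the downstream part, averaged 2.79% and 0.0629% in TRAV16, where TRAJ7 was found in 1 rearrangement. TRAJ58, at the upstream end, averaged 0.692% in TRAV3. By the correlation of mean shares across 43 TRAJ genes with 16 families, and leaving out the comparison of both families with each other, TRAV16 was most like TRAV9 (r = 0.683), TRAV14 (0.667) and TRAV13 (0.616), and TRAV3 most like TRAV9 (0.620), TRAV12 (0.523) and TRAV8 (0.470). The 2 families correlated with each other at 0.493, above the value of TRAV3 with TRAV8. These are descriptions over J genes that share libraries.

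TRAV16 carried the longer alpha CDR3 in every library. The mean length was 14.8 amino acids in PBS1, 14.5 in PBS2, 14.4 in CSF1R, 15 in CTX, 14.6 in CTX2 and 14.6 in Combined, against 13.5, 13.3, 13.5, 13.5, 13.9 and 13.7 for TRAV3. No TRAV3 value reached the lowest TRAV16 value. The means were 14.64 ± 0.221 and 13.55 ± 0.214, a difference of 1.09 ± 0.297 amino acids (SD, n = 6; higher in 6 of 6), which was 1.23 in the libraries named by number and 0.819 in the JR libraries. All other TRAV genes averaged 13.62 ± 0.0860, close to TRAV3. At 15 amino acids lay 32.6% of TRAV16 and 17.5% of TRAV3 rearrangements, and at 13 amino acids 14.9% and 26.7%.

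By bases, the families differed at the V end, where the consensus printed above is 16 bases for TRAV16 and 13 for TRAV3. Rearrangements matched it for 14.5 ± 0.379 bases in TRAV16 and 11.2 ± 0.387 in TRAV3 (SD, n = 6), and matched the J end for 26.4 ± 0.543 and 25.9 ± 1.05 bases. Between the matches lay 3.17 ± 0.310 bases in TRAV16 and 3.71 ± 0.931 in TRAV3, and no base at all in 8.97% and 13.5% of rearrangements. The V end is a consensus made without a germline sequence, and for TRAV3 it was taken over all copies. The match lengths depend on that method. Comparing only rearrangements with the same TRAJ gene, TRAV16 was longer by 1.38 ± 0.892 amino acids (6 of 6 libraries). The difference ran from 0.333 in CTX, where TRAV16 was longer for 3 of 6 shared J genes, to 3 in PBS1, with 3 shared J genes. In the pooled libraries it was 1.10, and TRAV16 was longer for 36 of 39 shared J genes.

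**Figure D4:**
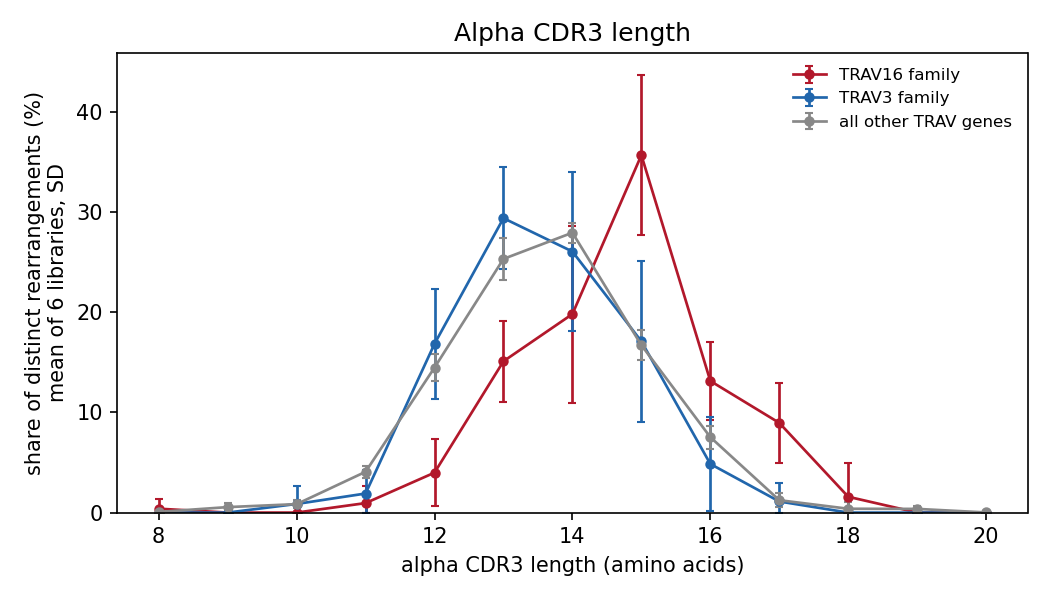
Share of rearrangements (vertical axis, percent, mean and SD of 6 libraries) by alpha CDR3 length in amino acids (horizontal axis) for TRAV16, TRAV3 and all other TRAV genes. By the mean of libraries TRAV16 peaks at 15 amino acids and TRAV3 at 13 (29.4%), with 26.0% of TRAV3 at 14. In the pooled rearrangements TRAV3 is highest at 14.

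Set against the background of all TRAV families, TRAV16 was above the other genes in every library both in CDR3 length and in J position, and TRAV3 in neither. Of 13 families with at least 3 rearrangements in every library, each set against all other TRAV genes, 2 (15.4%) had a higher mean TRAJ number in every library, TRAV14 and TRAV16, and 2 (15.4%) a lower one. For length 2 families (15.4%) were higher in every library, TRAV6 and TRAV16, and 3 (23.1%) lower. Counted with its DV copy, TRAV16 exceeded the other genes by 4.21 ± 1.80 J numbers (6 of 6, exact permutation p = 0.031, adjusted over 13 families 0.102) and by 1.05 ± 0.143 amino acids (6 of 6). TRAV3 differed by -1.61 ± 6.22 J numbers (3 of 6 higher, exact permutation p = 0.531) and by -0.138 ± 0.258 amino acids (2 of 6 higher).

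By the cut used here, the inner alpha CDR3 of TRAV16 was the more negative. Net charge was counted as lysine and arginine minus aspartate and glutamate, leaving out the first 4 and last 2 residues. For TRAV16 it averaged -0.0833 in PBS1, -0.211 in PBS2, -0.0698 in CSF1R, -0.333 in CTX, -0.296 in CTX2 and -0.155 in Combined, and for TRAV3 0.615, 0.409, 0.5, 0.565, 0.542 and 0.658. The families did not overlap, and the difference was -0.740 ± 0.131 (SD, n = 6; lower in 6 of 6), -0.697 in the libraries named by number and -0.826 in the JR libraries. Other TRAV genes averaged 0.597 ± 0.0454. The difference lay mainly at residue 5, glutamate in the common TRAV16 opening CAMRE: with the first 5 residues left out, an alternative chosen after seeing the data, it was -0.0780 ± 0.213. The V end printed above includes that residue, so the charge difference cannot be separated from the choice by V gene. The cut also left out residue 4, a positive arginine in the 93.6% of TRAV16 rearrangements that opened with CAMR. Of TRAV3 rearrangements, 12.5% opened with CAVR. The charge with residue 4 kept was not computed, so the difference holds for this cut only.

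Beta chain partners were found for 369 TRAV16 and 283 TRAV3 rearrangements, taking the TRB contig with the most UMIs in the cell. They used 18 and 17 TRBV genes. The TRBV13 genes, a family of 3 common in mouse T cells, partnered 45.5% of TRAV16 rearrangements in PBS1, 43.8% in PBS2, 35.9% in CSF1R, 39.1% in CTX, 44% in CTX2 and 38.0% in Combined, and 45.5%, 27.3%, 33.9%, 23.8%, 47.6% and 33.6% of TRAV3. The ranges overlap, and the difference of 5.77 points ± 8.29 (higher in 4 of 6, lower in 1; exact permutation p = 0.1875, adjusted 0.229) was within the spread. In the libraries named by number it was 8.44 points and in the JR libraries 0.434. Without PBS2 it was 3.63, counting each cell once 9.04 (exact permutation p = 0.219) and using only the TRA with the most UMIs in each cell 9.40 (exact permutation p = 0.031). Of the 13 families, 0 (0%) had a higher or a lower TRBV13 share than the other TRAV genes in every library by the exact sign-flip test, the only test run, and since p falls under 0.05 only for a family with the same sign in all 6 libraries, 0 passed unadjusted.

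By gene, TRAV16 paired most with TRBV13-1 (18.6% ± 10.4), TRBV13-2 (14.1% ± 9.09), TRBV5 (9.52% ± 6.25), TRBV13-3 (8.35% ± 4.82) and TRBV1 (7.61% ± 6.04; SD, n = 6). TRAV3 paired most with TRBV13-2 (14.1% ± 7.57), TRBV13-1 (11.3% ± 4.09), TRBV1 (11.2% ± 8.05), TRBV13-3 (9.85% ± 8.02) and TRBV5 (9.56% ± 3.14). These are the same 5 genes in another order. TRBV13-1 was above the TRAV3 value in 4 of 6 libraries, and its mean among all other TRAV genes was 9.80% ± 3.56.

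TRBJ2, the downstream J cluster of the beta locus, was a less frequent partner of TRAV16 than of TRAV3 in 5 of 6 libraries. Its share was 63.6% in PBS1, 56.2% in PBS2, 48.7% in CSF1R, 52.2% in CTX, 68% in CTX2 and 61.96% in Combined for TRAV16, and 72.7%, 72.7%, 58.9%, 66.7%, 66.7% and 67.1% for TRAV3. TRAV16 was lower in all but CTX2 (difference -9.01 points ± 6.47, exact permutation p = 0.0625, adjusted 0.0859). In the libraries named by number it was -12.6, in the JR libraries -1.91 and in the pooled rearrangements -5.92.

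The partner beta CDR3 was longer with TRAV16 in every library. It averaged 13.6 amino acids in PBS1, 14.7 in PBS2, 14.2 in CSF1R, 13.7 in CTX, 13.9 in CTX2 and 13.96 in Combined with TRAV16, and 13.3, 13.5, 13.8, 13.2, 12.9 and 13.6 with TRAV3. Across libraries the families overlap, since TRAV3 in CSF1R exceeded TRAV16 in PBS1, and within each library TRAV16 was the longer. The difference was 0.602 ± 0.359 amino acids (SD, n = 6; 6 of 6; exact permutation p = 0.031, adjusted 0.0859), 0.576 in the libraries named by number and 0.654 in the JR libraries. Among contigs with at least 2 UMIs it was 0.479 (exact permutation p = 0.0625). Beta chains of all other TRAV genes averaged 13.74 ± 0.0882, between both families.

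**Figure D5:**
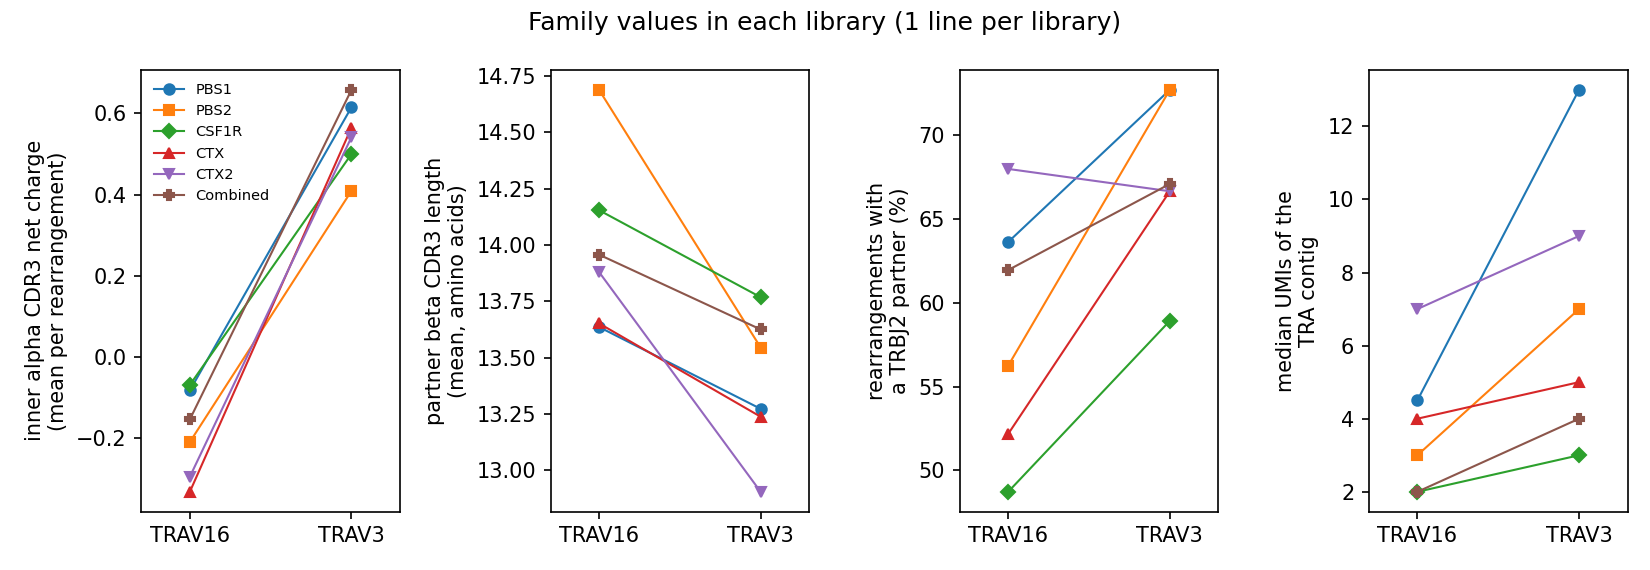
Readouts of the TRAV16 and TRAV3 families in each library (1 line per library; vertical axes do not start at 0): inner alpha CDR3 net charge, partner beta CDR3 length in amino acids, percent of rearrangements with a TRBJ2 partner, and median UMIs of the TRA contig. Charge and UMIs go up and beta length goes down from TRAV16 to TRAV3 in 6 of 6 libraries, and TRBJ2 goes up in 5 of 6.

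TRAV16 contigs rested on fewer molecules. Their median UMI count was 4.5 in PBS1, 3 in PBS2, 2 in CSF1R, 4 in CTX, 7 in CTX2 and 2 in Combined, and that of TRAV3 contigs 13, 7, 3, 5, 9 and 4. TRAV3 was higher within every library (difference -3.08 ± 2.87, exact permutation p = 0.031, adjusted 0.0859; -3.62 in the libraries named by number, -2 in the JR libraries). Without PBS1 the difference was -2, without PBS1 and PBS2 -1.50, and among contigs with at least 2 UMIs -2.92 (exact permutation p = 0.0625). The median over all other TRAV genes averaged 4.5. UMI depth moves with the family in each result above, and its part in them was not tested beyond the limit of 2 UMIs given among the alternatives.

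Nonproductive joins, out of frame or with a stop codon, cannot be selected as receptors and give a comparison for the V gene itself. TRAV16N made up 390 of 9383 productive rearrangements (4.16%) and 3 of 510 nonproductive ones (0.588%). In 4 libraries TRAV16N had 0 nonproductive rearrangements, in CTX 1 and in Combined 2. The log2 odds ratio of being productive against other TRAV genes, with 0.5 added to each count, was 1.94 in PBS1, 1.63 in PBS2, 2.46 in CSF1R, 0.669 in CTX, 2.38 in CTX2 and 2.34 in Combined. It averaged 1.90 ± 0.682 (6 of 6 above 0), 1.67 in the libraries named by number and 2.36 in the JR libraries. In the 4 libraries with 0 nonproductive rearrangements the ratio is set by the added 0.5. The mean was lower in stricter sets: it came to 0.999 among high-confidence contigs and to 0.741 among contigs with at least 2 UMIs. With 3 nonproductive rearrangements in all, the values are given as a description, with no p.

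For TRAV3 the ratios lay on both sides of 0. The family made up 303 of 9383 productive rearrangements (3.23%) and 15 of 510 nonproductive ones (2.94%), with log2 odds ratios of 2.06 in PBS1, -1.11 in PBS2, -0.321 in CSF1R, -0.170 in CTX, 0.588 in CTX2 and 0.448 in Combined. The value in PBS1 is also set by the added 0.5, with 0 nonproductive rearrangements. The mean was 0.249 ± 1.08 (3 of 6 above 0), without PBS1 -0.114 and without PBS2 0.522. In the libraries named by number it was 0.115 and in the JR libraries 0.518. Of its 15 nonproductive rearrangements 5 were TRAV3N-3, a copy with 8 productive ones, 4 each were TRAV3-1 and TRAV3-3, and 2 were TRAV3-4.

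A T cell can carry a second productive alpha chain, as both chromosomes rearrange. The share of rearrangements in cells with 2 or more productive TRA contigs was 8.33% in PBS1, 31.6% in PBS2, 23.3% in CSF1R, 25% in CTX, 14.8% in CTX2 and 27.9% in Combined for TRAV16, and 38.5%, 27.3%, 18.3%, 30.4%, 50% and 26.7% for TRAV3. The families changed order between libraries, and the difference of -10.1 points ± 17.96 was within the spread (higher in 3 of 6, exact permutation p = 0.375, adjusted 0.412). Without CTX2 it was -5.02, without PBS1 -6.04 and in the pooled rearrangements -1.83. Among all other TRAV genes, the share in cells with 2 or more productive TRA contigs averaged 30.8% ± 3.33. Of the 113 companion chains of TRAV16 cells 5 were TRAV3, and 0 were another TRAV16. Of the 144 companion chains of TRAV3 cells 5 were TRAV16, and 6 were another TRAV3. Among all productive rearrangements TRAV16 made up 4.16% and TRAV3 3.23%. These companion counts are small and were not tested.

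Most members were seen in 1 cell. Of 390 TRAV16 rearrangements 18 (4.62%) were in 2 or more cells, and of 303 TRAV3 rearrangements 11 (3.63%). The share in beta chain clones of 2 or more cells was 18.2%, 6.25%, 2.56%, 0%, 12% and 1.57% for TRAV16 in PBS1, PBS2, CSF1R, CTX, CTX2 and Combined, and 18.2%, 0%, 3.57%, 9.52%, 28.6% and 0% for TRAV3. The difference, -3.21 points ± 8.32, was within the spread (higher in 2 of 6, lower in 3, exact permutation p = 0.4375), and it was -0.542 without CTX2, -1.95 without CTX and -5.11 without PBS2. All other TRAV genes averaged 7.85% ± 5.50.

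The largest groups of cells sharing a member were in CTX2 and CTX, and 3 of them are printed, the largest of each family and a second TRAV3-4 group.
TRAV16N with TRAJ40 in CTX2, 20 cells: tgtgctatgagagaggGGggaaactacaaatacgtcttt
TRAV3-4 with TRAJ56 in CTX2, 36 cells: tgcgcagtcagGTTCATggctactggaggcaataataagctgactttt
TRAV3-4 with TRAJ57 in CTX2, 10 cells: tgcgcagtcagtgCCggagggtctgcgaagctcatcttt
The TRAV16N group encodes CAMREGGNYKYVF, and all 20 cells had the same TRBV13-2 beta chain. The TRAV3-4 group made up 3.45% of the 1044 TRA cells of CTX2, and the 32 of its cells with a beta chain all carried TRBV13-3 with CDR3 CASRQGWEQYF. In 32 of the 36 cells there was a second TRA contig. In CTX, 11 cells shared TRAV3-3 with TRAJ39 (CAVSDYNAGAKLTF) and 1 TRBV1 beta chain, while the 10 cells of the TRAJ57 group shared 1 TRBV5 beta chain, with a second TRA in 9. The next TRAV16N groups had 5 cells in PBS2, with TRAJ48 and 1 TRBV13-2 beta chain, and 3 cells in Combined, with TRAJ31 (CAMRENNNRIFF), where the 2 cells with a beta chain had different ones.

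Alpha CDR3 sequences were shared between libraries at close to the same rate in both families. In amino acids, 22 of 356 TRAV16 sequences (6.18%) and 17 of 265 TRAV3 sequences (6.42%) occurred in 2 or more libraries, against 302 of 7844 (3.85%) for all other TRAV genes. In 3 or more libraries there were 3, 3 and 26. The 3 TRAV16 sequences, printed above, occurred in 3 libraries each, in 4, 3 and 3 cells, and every cell had another beta chain. The TRAJ53 and TRAJ52 sequences of TRAV3 also occurred in 3 libraries and 3 cells each, always with different beta chains, and each was read as TRAV3-3 in 1 library and as TRAV3-4 in the other 2.

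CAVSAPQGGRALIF, the TRAV3-3 and TRAJ15 chain printed above, was the most widely shared member. It was carried by 22 cells: 1 of 188 TRA cells in PBS1 (0.532%, interval 0.0135 to 2.93), 4 of 404 in PBS2 (0.990%, 0.270 to 2.52), 2 of 764 in CSF1R (0.262%, 0.0317 to 0.942), 9 of 504 in CTX (1.79%, 0.820 to 3.36), 6 of 1044 in CTX2 (0.575%, 0.211 to 1.25) and 0 of 6070 in Combined, with a limit of 0.0494%. CTX was the highest and Combined the lowest, and only the intervals of PBS1 and CSF1R reached down to the limit in Combined. Apart from the invariant chain of natural killer T cells (TRAV11 with TRAJ18), no other TRA CDR3, counted per V family, was found in 5 libraries. TRAV3-3 joined TRAJ15 in 12 rearrangements, 7 of which encoded this sequence, and 2 of the 12 were in Combined.

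The cells with this chain were not 1 clone. Of the 22, 18 had a beta chain, and these were 16 distinct TRB sequences of 8 TRBV genes: 4 with TRBV13-1, 3 each with TRBV19 and TRBV2, 2 with TRBV31 and 1 each with TRBV1, TRBV13-3, TRBV20 and TRBV3. TRBJ2 was used by 13 of the 16, and beta CDR3 lengths ran from 12 to 17 amino acids. By distinct beta chains this was the 2nd of 8003 alpha CDR3 sequences, after the same natural killer T cell chain with 19, where the median is 1. Both nucleotide versions occurred in CTX and in CTX2. Its contigs had a median of 7 UMIs (1 to 25), were the TRA contig with the most UMIs in 20 of the 22 cells, and were the only productive TRA in 16, and none of its barcodes occurred among its cells in a second library. In 4 of the 22 cells there were 2 or more productive TRB contigs, and only that with the most UMIs was counted. Whether these cells were doublets was not tested. The sequence was singled out for its sharing, so no test is given.

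Leaving it out, an alternative chosen after seeing the data, changed the family differences little: TRAJ number 4.38, downstream share -13.2 points, alpha CDR3 length 1.12, TRBJ2 share -8.60 points and beta CDR3 length 0.629.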

How the data were processed

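Single-cell receptor libraries of CD45+ tumour cells were made with a mouse T cell V(D)J kit, per the labels' protocols. The authors deposited 1 table of assembled contigs with read counts and UMI counts, whole and not normalized, and with cell, chain, gene, CDR3 and productive calls. Per the submitters' processing notes, Cell Ranger 3.0.2 and the builds mm10 and GRCm38 were used. Its settings are not given in the sources used here. Of 11 library names, 6 matched a sample by a number in its title and the other 5 were not used. Expression data were not used here.

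Calls were taken as deposited, with no UMI minimum and doublets kept. A rearrangement is a V gene with a CDR3 nucleotide sequence, counted once per library and described in the cell with its most UMIs. Nonproductive rearrangements were distinct by V gene, J gene and CDR3 or, with none, contig length. A beta chain clone is the cells of a library with the same TRBV gene and TRB CDR3 nucleotides. Family differences were taken within libraries and tested by an exact permutation that flips their signs over the 6 libraries, two-sided, with Benjamini-Hochberg adjustment over 11 measures. Positions are from a RefSeq gene table of GRCm38.p6.

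Members, lists and measures were chosen with earlier results of these data known. Named by rule were all member V genes, the 5 TRAJ and 5 TRBV genes with the largest mean share per family, CDR3 sequences in 3 or more libraries, the 3 largest cell groups and the 3 most similar families. No cell type markers were checked, since the receptor table holds no expression values. Alternatives were other counting units, contig filters, doublet removal, libraries left out and other boundaries. Calculations ran in Python 3.11.15 (pandas 2.3.3, scipy 1.17.1, numpy 2.4.6), and plots were drawn with matplotlib 3.10.9. The sign-flip test, the adjustment, the counting of rearrangements, the mean alpha CDR3 length and the TRBV13 share were first tested on simulated data. The other measures were not tested in this way.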

Additional observations from a re-analysis of the deposited data

How the results depend on the processing

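Of 294 values under alternatives, 274 counted as the same. Of the others, 6 fell short of the 0.05 threshold before adjustment, 4 newly passed it, 9 moved further and 1 reversed. Same meant an unchanged direction and side of the threshold where the test was rerun. Where it was not, as with libraries left out or pooled, it meant a move within the spread, even past 0. Family shares had to stay inside their exact interval and counts of families to stay similar. So the TRAJ difference of 0.262 in the JR libraries counted as the same as 5.32. The tally includes alpha CDR3 length, charge and productive odds, which are described without a test. With high-confidence contigs the upstream TRAJ difference was 11.8 points (exact permutation p = 0.031). The TRAV16 log2 productive odds ratio, a description without a p, fell to 0.999. With contigs of 2 or more UMIs the upstream difference was 8.70 points (exact permutation p = 0.031). The beta CDR3 length difference, 0.479, and the UMI difference, -2.92, no longer passed (exact permutation p = 0.0625 for each). In the same set the TRAV16 log2 odds ratio fell to 0.741 and that of TRAV3 reversed to -0.0871. The shares in Combined were 3.15% for TRAV16 and 2.70% for TRAV3. Counting each cell once gave an alpha CDR3 length difference of 0.798 and a TRBJ2 difference of -8.89 points (exact permutation p = 0.031). Using only the TRA with the most UMIs, the TRBV13 difference was 9.40 points (exact permutation p = 0.031). Leaving out the first 5 residues, added after seeing the data, gave a charge difference of -0.0780. In the 2 JR libraries the upstream difference was 0.130 and the TRBJ2 difference -1.91. The number of families higher or lower in every library became 4 and 4 for TRAJ number, and 1 for a lower TRBV13 share, with 1 or more rearrangements per library; counting cells once, it was 2 for a higher TRBV13 share and 1 for a longer alpha CDR3. The cause was not tested in any of these.

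With 1 library left out at a time, the difference ranged from 1.01 to 1.17 for alpha CDR3 length, from 0.494 to 0.656 for beta CDR3 length and from 3.93 to 6.58 for TRAJ number. The second alpha difference ranged from -13.0 to -5.02 points, the clone difference from -5.11 to -0.542 points, the UMI difference from -3.5 to -2, the TRBV13 difference from 3.63 to 7.65 points and the TRAV3 log2 odds ratio from -0.114 to 0.522. Each family difference was paired within its library. For treatment no paired analysis was possible, because no label ties a library to a mouse and PBS1 was the 1 untreated library. Depth limits the values of PBS1 most, with 12 TRAV16 and 13 TRAV3 rearrangements.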
